A study of Mus musculus with 19 samples.

Results

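The transcripts followed here were those of fatty acid uptake and mitochondrial fatty acid oxidation in the mouse heart, a list of 33 genes running from lipoprotein lipase at the vessel wall to the thiolases of the mitochondrial matrix. Each gene was taken from the platform annotation through probe sets that list 1 gene, and the probe set with the highest mean was used where a gene had several. In this way 30 of the 33 genes were measured, among 22180 genes measured in all. Cpt1b, the muscle isoform of the outer carnitine palmitoyltransferase, was covered only by a probe set that also lists other genes. Acsl1, an acyl-CoA synthetase, and Ucp2, an uncoupling protein, were covered by no probe set that names them, and these 3 genes were not analysed here.

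The study measured RNA on Affymetrix arrays in 19 hearts perfused by the Langendorff method, in which an isolated heart is fed through the aorta. Each heart was stabilised for 20 min, left without flow for 20 min, reperfused for 20 min and then frozen. The groups were 7 wild-type hearts at ZT0 (WT ZT0), 7 wild-type hearts at ZT12 (WT ZT12) and 5 Rev-erb alpha knockout hearts at ZT12 (KO ZT12), ZT being zeitgeber time in hours from lights on. The design asks how time of day and the clock repressor Rev-erb alpha, encoded by Nr1d1, bear on the transcripts of the reperfused heart. All 19 hearts went through ischemia and reperfusion, so no value describes an unstressed heart, and there was no knockout group at ZT0. The wild-type mice were C57Bl6J, while the labels give no strain for the knockout mice, no age for any group, and name the allele only as a knockout. Genotype and strain background therefore cannot be told apart.

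The heart draws most of its energy from fatty acids. They are freed from lipoproteins by lipoprotein lipase, taken up through CD36 and fatty acid transport proteins, activated to acyl-CoA and carried into mitochondria by the carnitine shuttle, whose first enzyme is inhibited by malonyl-CoA. In the matrix, chain-length-specific dehydrogenases, hydratases and thiolases shorten the chain, and electron transfer flavoprotein passes the electrons on. Many of these genes are induced by the lipid-sensing PPAR nuclear receptors, which bind tandem copies of the hexamer AGGTCA, and Rev-erb alpha binds the same hexamer behind an A/T-rich stretch.

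Promoter windows of 300 bases, from 250 before to 50 after the start of the gene, were read from RefSeq (GRCm38.p6). Of the 33 listed genes 27 had at least 1 window, 30 windows in all. AGGTCA, on either strand, was in 7 of the 30 windows, those of Acacb, Acadm, Acadvl, Cd36, Cpt1a, Echs1 and Ucp3, against 16.3% of the 32851 windows of all genes. The longer TAGGTCA, the core of the Rev-erb element, contains that hexamer and was in 1 window, that of Acadvl (2.61% of all windows). A tandem pair of AGGTCA with 1 base between was in 0 of 30 (0.0396% of all windows). Hadha and Hadhb, which encode the subunits of the trifunctional protein, lie head to head, and their windows share 228 bases. The windows shown are those of Acads, the member that passed the test between the times of day, of Ucp3, with the most hexamers, and of Cpt1a, the member nearest to passing in another comparison. Each is written 5′ to 3′ on the strand of its gene, and capitals mark AGGTCA or, where it lies on the other strand, TGACCT.
Acads, chr5:115119297-115119596, minus strand: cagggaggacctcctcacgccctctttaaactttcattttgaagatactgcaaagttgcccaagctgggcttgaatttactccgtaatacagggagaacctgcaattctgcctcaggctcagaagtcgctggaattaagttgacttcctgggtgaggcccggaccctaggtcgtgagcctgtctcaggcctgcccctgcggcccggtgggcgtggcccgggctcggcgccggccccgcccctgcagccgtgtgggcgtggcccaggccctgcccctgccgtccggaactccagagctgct
Ucp3, chr7:100472741-100473040, plus strand: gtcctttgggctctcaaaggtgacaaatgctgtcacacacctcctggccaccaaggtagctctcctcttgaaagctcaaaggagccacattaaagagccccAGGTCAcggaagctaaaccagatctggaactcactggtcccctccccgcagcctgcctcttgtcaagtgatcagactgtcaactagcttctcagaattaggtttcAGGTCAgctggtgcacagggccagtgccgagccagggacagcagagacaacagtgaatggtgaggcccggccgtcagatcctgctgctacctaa
Cpt1a, chr19:3323051-3323350, plus strand: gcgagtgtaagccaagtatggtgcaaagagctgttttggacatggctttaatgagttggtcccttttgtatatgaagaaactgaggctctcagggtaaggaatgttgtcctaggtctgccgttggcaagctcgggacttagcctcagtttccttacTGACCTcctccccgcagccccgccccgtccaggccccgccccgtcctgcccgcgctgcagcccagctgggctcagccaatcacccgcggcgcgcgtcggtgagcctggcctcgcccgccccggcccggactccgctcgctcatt
In Ucp3 the hexamers began 149 and 44 bases before the start of the gene, in Cpt1a the hexamer began 94 bases before it, and Acads had none. These letters are a description of the windows and say nothing of binding.

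The tissue had the markers of its label. All 10 cardiomyocyte markers were measured, and their mean on the log2 scale was 11.24 to 11.31 in WT ZT0, 11.23 to 11.30 in WT ZT12 and 11.27 to 11.33 in KO ZT12. Some hearts stood apart in other markers. The mean of the 6 measured atrial markers was 7.83 to 9.50 in WT ZT0, 5.70 to 9.26 in WT ZT12 and 5.19 to 9.22 in KO ZT12. It lay between 5.19 and 5.70 in WT ZT12 replicate 5 and KO ZT12 replicates 2, 4 and 5, and the next heart was at 7.02. The mean of the 8 measured adipocyte markers was highest in WT ZT12 replicate 7 (6.49) and KO ZT12 replicate 1 (6.46), and the next heart was at 5.80. The mean of the 5 brown adipocyte markers was highest in the same hearts (4.97 and 5.47), and the next heart was at 4.55. Among these markers Ucp1 read 7.80 and 8.39 there, with group medians of 3.07 and 3.39. Zic1 was highest in other hearts of both groups, and Otop1 in another heart of WT ZT12. The part of brown fat in the values of the listed genes was not tested. Several results that rest on these hearts are given with and without them. Nr1d1 itself read 5.76 to 6.67 in WT ZT0, 6.46 to 7.28 in WT ZT12 and 6.30 to 6.51 in KO ZT12. Since the part of Nr1d1 that was removed is not given in the sources used here, this probe set does not check the genotype. Arntl, a target that Rev-erb alpha represses, was at a mean of 7.27 in WT ZT0, 4.08 in WT ZT12 and 6.54 in KO ZT12. In whole tissue, fewer cells of a type and less RNA per cell cannot be told apart.

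**Figure D1:**
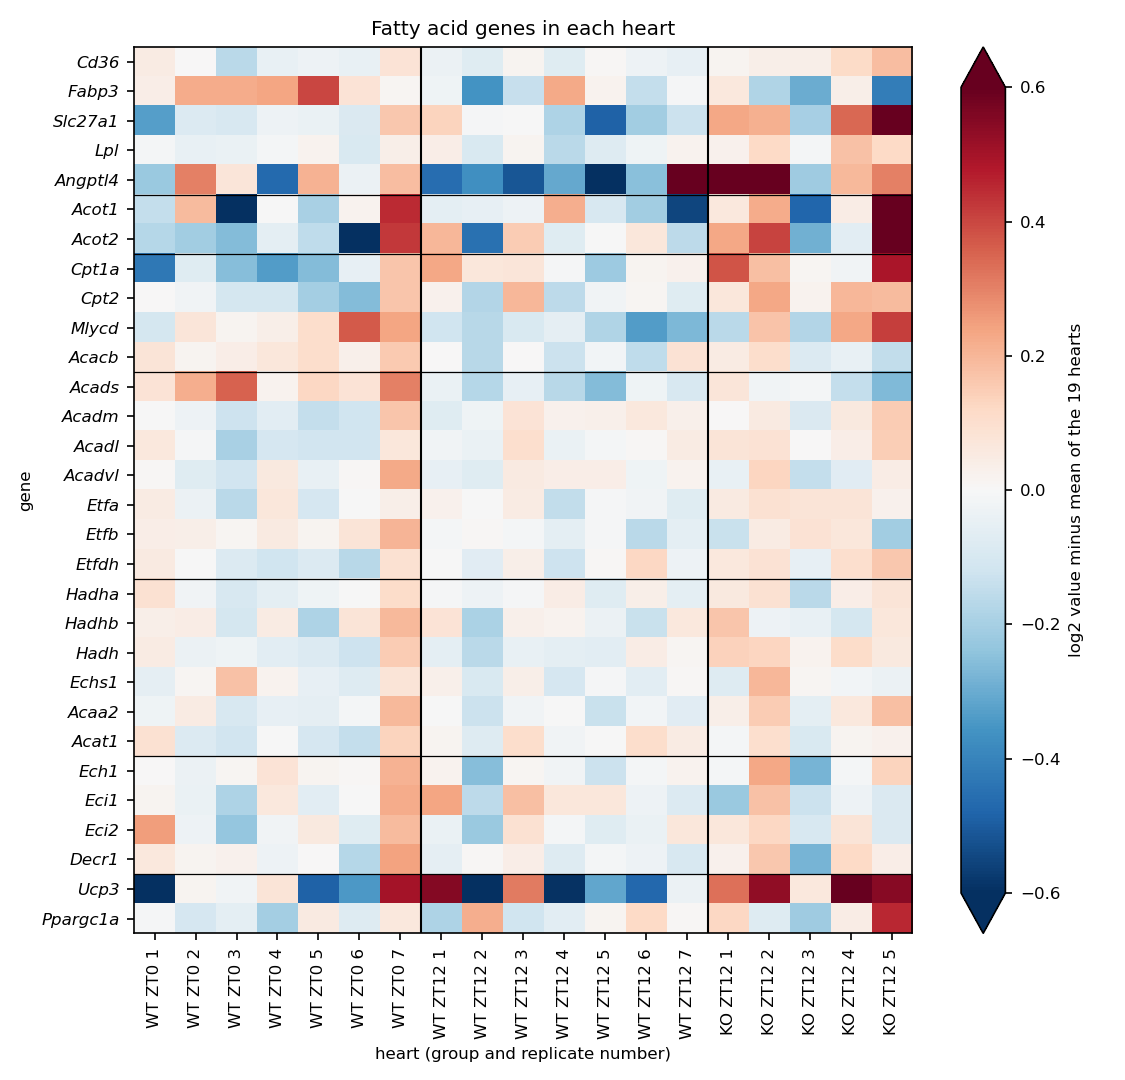
Log2 value of each of the 30 measured genes (rows, ordered by role from uptake to uncoupling) in each of the 19 hearts (columns, by group and replicate), minus the gene's mean over all hearts; the colour scale is cut at 0.6 in both directions. WT ZT0 replicate 7 is above the mean in nearly every row, and Angptl4, Acot1, Acot2 and Ucp3 have the strongest colours.

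Between ZT0 and ZT12 most transcripts of fatty acid uptake and oxidation differed little in the wild-type heart, and so did most genes on the array. For 22 of the 30 genes the 95% interval of the difference lay within a 1.3-fold change either way, beside 75.8% of all genes. How the members stand to all genes here depends on that bound, which was chosen after values were seen: within 1.2-fold it was 21 of 30 beside 39.3% of all genes, and within 1.4-fold 29 of 30 beside 90.7%. At an adjusted p under 0.05, 1 gene was lower at ZT12 (0.482% of all genes), 0 were higher and 29 did not pass (1.13% of all genes passed in either direction). That gene was Acads, short-chain acyl-CoA dehydrogenase, which starts the oxidation of the shortest fatty acyl-CoAs. The median log2 difference over the 30 genes was -0.033, beside -0.0035 over all genes, and 9 of 30 differences were above 0 (48.8% of all genes). An unadjusted p under 0.05 was reached by 5 of the 30 (11.5% of all genes). Markers of several other cell types also had lower medians at ZT12, with overlapping ranges. The mean of the 5 smooth muscle markers was at 6.40 in WT ZT0 and 6.21 in WT ZT12. That of the 9 endothelial markers was at 7.35 and 7.21, and that of the 7 fibroblast markers at 7.53 and 7.39. That of the atrial markers was at 9.09 and 7.93, that of the adipocyte markers at 5.16 and 4.73, and that of the 5 brown adipocyte markers at 3.92 and 3.62. Medians of the 7 macrophage markers (6.43 and 6.46) and the 7 skeletal muscle markers (2.69 and 2.73) were higher at ZT12. The skeletal muscle means lay below every array median (3.25 to 3.32) and say little about that tissue. The part of all these cell types in the differences was not tested.

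Acads had a lowest value of 8.47, a median of 8.57 and a highest of 8.80 in WT ZT0, and 8.18, 8.35 and 8.42 in WT ZT12, on the log2 scale of the probe set. Every WT ZT12 heart was thus below every WT ZT0 heart, as also in Etfb, so that groups did not overlap in 2 of 30 genes (0.902% of all genes). The means were 8.61 ± 0.12 and 8.33 ± 0.087 (SD, n = 7 each), a 1.22-fold fall (log2 difference -0.28, SE 0.069; limma, adjusted p = 0.0454). This call sits near the threshold. It was lost in 22 of 31 alternative settings, among them 16 of the 19 that leave out a single heart (adjusted p between 0.0330 and 0.105 over these 19), and without the 4 hearts low in atrial markers (adjusted p = 0.0852). The KO ZT12 hearts read 8.52, 8.42, 8.43, 8.30 and 8.18, spanning the WT ZT12 range and the lower end of WT ZT0.

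The dehydrogenases for longer chains did not pass. Acadm (medium chain), Acadl (long chain) and Acadvl (very long chain) had log2 differences of 0.063, 0.063 and -0.0070 between ZT12 and ZT0, with adjusted p from 0.724 to 0.979. Electron transfer flavoprotein takes electrons from all of these dehydrogenases. Its subunit genes Etfa and Etfb differed by -0.0023 and -0.10, and Etfdh, whose product hands the electrons to ubiquinone, by 0.035. Etfb, with all WT ZT12 hearts between 9.19 and 9.36 and all WT ZT0 hearts between 9.37 and 9.56, had an adjusted p of 0.524.

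Among uptake genes, Fabp3, the heart-type fatty acid binding protein of the cytosol, had a lowest, median and highest value of 7.27, 7.48 and 7.66 in WT ZT0 and 6.91, 7.24 and 7.49 in WT ZT12. The groups overlapped, and the log2 difference of -0.23 (SE 0.092) did not pass (adjusted p = 0.309). A second probe set of Fabp3, at a mean of 3.24 and so near the array medians of 3.25 to 3.32, gave -0.24. Cd36, the main fatty acid translocase of the cardiomyocyte membrane, had the smallest spread of the 30 genes, with a within-group SD of 0.064. It read 11.13, 11.26 and 11.37 in WT ZT0 and 11.22, 11.25 and 11.30 in WT ZT12, a log2 difference of -0.014. Lpl, lipoprotein lipase, had 11.44, 11.52 and 11.57 in WT ZT0 and 11.37, 11.51 and 11.57 in WT ZT12, ranges that lay almost on top of each other. Its log2 difference was -0.021, and a second probe set gave 0.11, the opposite sign; neither passed.

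Malonyl-CoA, which blocks carnitine palmitoyltransferase 1, is made by the product of Acacb and broken down by that of Mlycd. Both transcripts had lower means at ZT12 without passing the test. Mlycd read 5.87, 6.04 and 6.34 in WT ZT0 and 5.64, 5.81 and 5.92 in WT ZT12 (lowest, median, highest), a log2 difference of -0.28 (SE 0.091, adjusted p = 0.182). All 7 WT ZT12 hearts were below the WT ZT0 mean, though the ranges overlapped. Acacb read 7.63, 7.68 and 7.77 in WT ZT0 and 7.44, 7.60 and 7.70 in WT ZT12, a log2 difference of -0.12 (SE 0.058, adjusted p = 0.423), with 6 of 7 hearts below the WT ZT0 mean. In the KO ZT12 hearts Acacb was at 7.66, 7.72, 7.53, 7.57 and 7.47, inside the WT ZT12 range but for the second heart. Cpt1a, the isoform of carnitine palmitoyltransferase 1 best known from liver, was at 0.20 (adjusted p = 0.429), and Cpt2, the inner-membrane enzyme, at 0.048.

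None of the remaining steps of the spiral passed the test. Differences for the hydratase, dehydrogenase and thiolase genes Hadha, Hadhb, Hadh, Echs1, Acaa2 and Acat1 ran from -0.054 to 0.057, and the intervals of all 6 lay within 1.3-fold. The probe set of Hadhb read only 3.69 to 4.07, close to the array medians, so its values say little about that subunit. The auxiliary enzymes of unsaturated fatty acids, Ech1, Eci1, Eci2 and Decr1, ran from -0.094 to 0.039, with all 4 intervals within 1.3-fold.

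**Figure D2:**
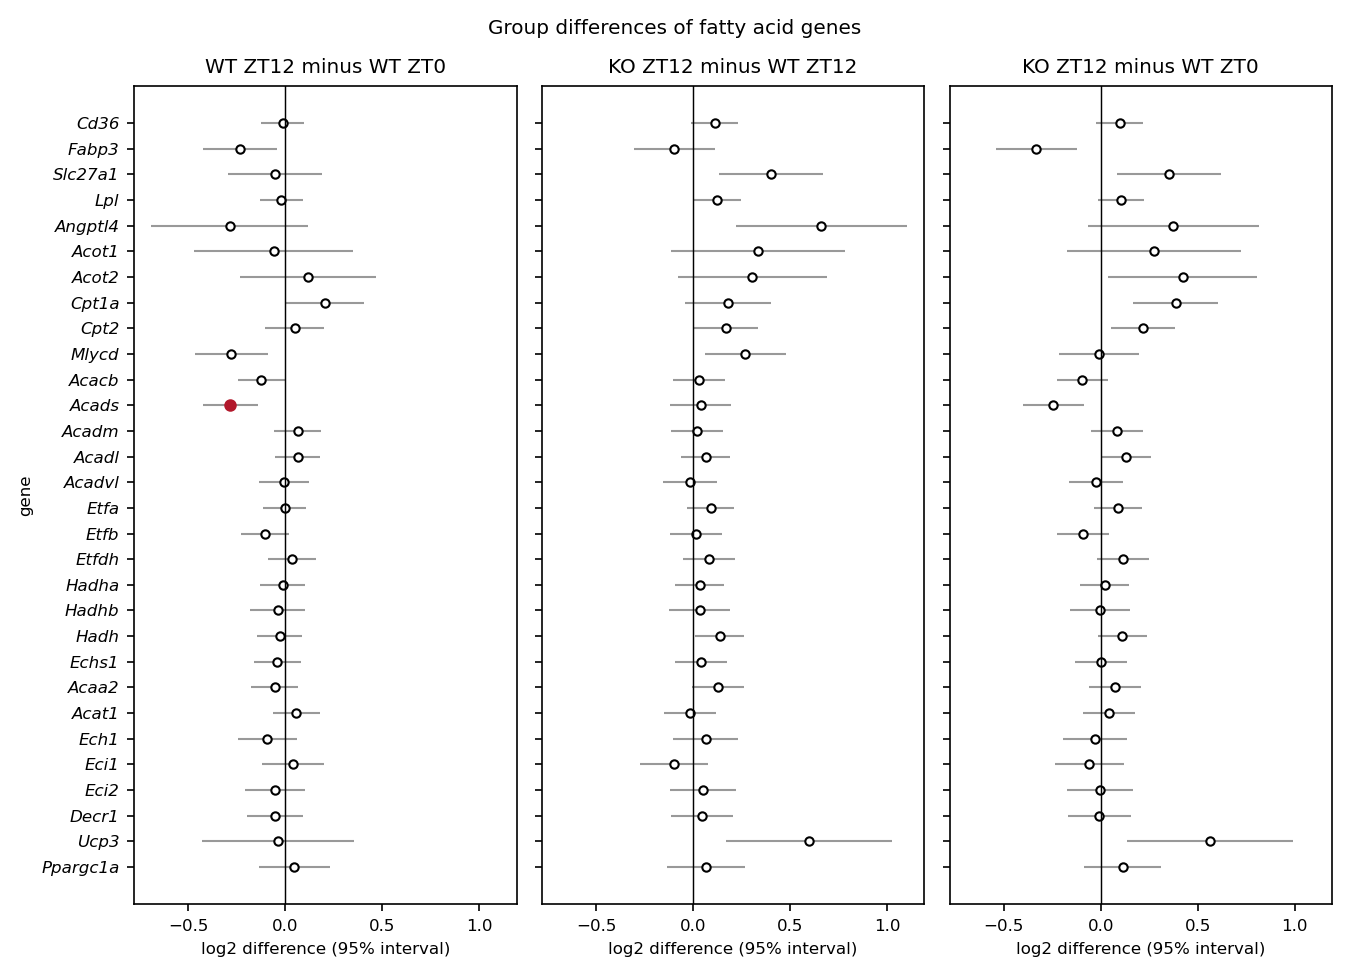
Log2 difference of group means (circles) with its 95% interval from limma (lines) for each of the 30 genes in the 3 comparisons; the filled red circle marks the gene that passed at an adjusted p under 0.05. Acads between the times of day is the filled point, and the intervals of Angptl4, Acot1, Acot2 and Ucp3 are the widest.

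At ZT12, knockout hearts differed from wild-type hearts in 0 of the 30 genes at an adjusted p under 0.05 by limma (0.73% of all genes passed), while 7 reached an unadjusted p under 0.05 (10.6% of all genes). Differences above 0 were found for 26 of 30 genes (49% of all genes), with a median log2 difference of 0.066 beside -0.0030 over all genes. Without the 4 hearts low in atrial markers, 3 of which are knockout hearts, 19 of 30 were above 0 and the median was 0.023. The knockout hearts left were then replicates 1 and 3. Replicate 3 was the lowest knockout heart in 20 of the 30 genes, and replicate 1 was the highest knockout heart in adipocyte markers. The cardiomyocyte marker mean had a median of 11.30 in the knockout hearts and 11.26 in WT ZT12, that of the fibroblast markers 7.56 and 7.39, and that of the 7 macrophage markers 6.23 and 6.46. For the atrial markers the medians were 5.63 and 7.93, for smooth muscle 6.32 and 6.21, and for endothelial markers 7.24 and 7.21. Adipocyte markers had 4.94 and 4.73, brown adipocyte markers 3.74 and 3.62, and skeletal muscle markers, near background, 2.63 and 2.73. The part of these cell types in the differences was not tested. The intervals of 23 genes lay within 1.3-fold (68.3% of all genes). The group ranges separated for 1 gene, Cd36 (1.4% of all genes). It read 11.31, 11.33, 11.33, 11.40 and 11.48 in the knockout hearts against a WT ZT12 maximum of 11.30 (log2 difference 0.11, adjusted p = 0.518). Without the 4 hearts low in atrial markers Cd36 was at 0.068.

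The 4 genes with the smallest p in this comparison were Slc27a1, Angptl4, Ucp3 and Mlycd. Slc27a1, fatty acid transport protein 1, had a lowest, median and highest value of 6.42, 6.78 and 7.04 in WT ZT12, and 7.14, 7.12, 6.71, 7.25 and 7.71 in the knockout hearts. Of these 5 hearts, 4 were above all wild-type hearts at ZT12 and the third was below their median. The log2 difference was 0.40 (SE 0.13, adjusted p = 0.198), and it was 0.083 without the 4 hearts low in atrial markers. WT ZT12 replicate 5, also low in atrial markers, had the lowest Slc27a1 value of its group. In WT ZT0 the gene read 6.58, 6.83 and 7.07.

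Angptl4 encodes a secreted inhibitor of lipoprotein lipase that is induced by fatty acids. It read 4.18, 4.72 and 4.95 in WT ZT0 and 3.86, 4.28 and 5.37 in WT ZT12, and 5.63, 5.30, 4.44, 4.84 and 4.95 in the knockout hearts. All 5 knockout hearts lay above the WT ZT12 mean of 4.37, but WT ZT12 replicate 7, at 5.37, was above 4 of them. The log2 difference was 0.66 (SE 0.21, adjusted p = 0.201). Without WT ZT12 replicate 7 it was 0.83 and passed (adjusted p = 0.0283), the only member called in this comparison in any of the 31 alternatives. The highest hearts in each ZT12 group, WT ZT12 replicate 7 and KO ZT12 replicate 1, are also the 2 hearts highest in adipocyte markers. Without both hearts the difference was 0.68 (adjusted p = 0.0615). Within groups, Angptl4 had a slope of 0.34 log2 units per unit of the adipocyte marker mean (SE 0.10, adjusted p = 0.261).

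Ucp3, an uncoupling protein of muscle mitochondria that follows fatty acid supply, had 4.63, 5.29 and 5.81 in WT ZT0 and 4.66, 5.0002 and 5.86 in WT ZT12. The knockout hearts read 5.64, 5.84, 5.38, 5.97 and 5.86. All 5 were above the WT ZT12 mean, and 1 was above the highest wild-type heart at that time. The log2 difference was 0.60 (SE 0.21, adjusted p = 0.245), and 0.35 without the 4 hearts low in atrial markers. Its within-group SD over the 3 groups was 0.39. Ppargc1a, the PPAR coactivator PGC-1 alpha, was at 0.066.

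Mlycd read 5.81, 6.14, 5.80, 6.21 and 6.39 in the knockout hearts, a log2 difference of 0.27 (SE 0.10, adjusted p = 0.298). The 3 higher values are those of the hearts low in atrial markers, and without these 3 and WT ZT12 replicate 5 the difference was 0.0032. The part of atrial tissue in these values was not tested. Other genes with an unadjusted p under 0.05 were Lpl (0.13), Cpt2 (0.17) and Hadh, the short-chain hydroxyacyl-CoA dehydrogenase (0.14), with adjusted p from 0.417 to 0.463. The thioesterases Acot1 (cytosolic) and Acot2 (mitochondrial), which release free fatty acids from acyl-CoA, were at 0.34 and 0.31 with adjusted p of 0.621 and 0.596. Without the 4 hearts low in atrial markers Acot1 was at -0.093, Acot2 at 0.015, Lpl at 0.040 and Cpt2 at 0.075. Knockout replicate 3, which stays in that setting, was the lowest knockout heart for each of these genes. Hadh was at 0.116 or above in all 31 alternatives. Differences for the 7 dehydrogenase and electron transfer genes ran from -0.018 to 0.091.

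**Figure D3:**
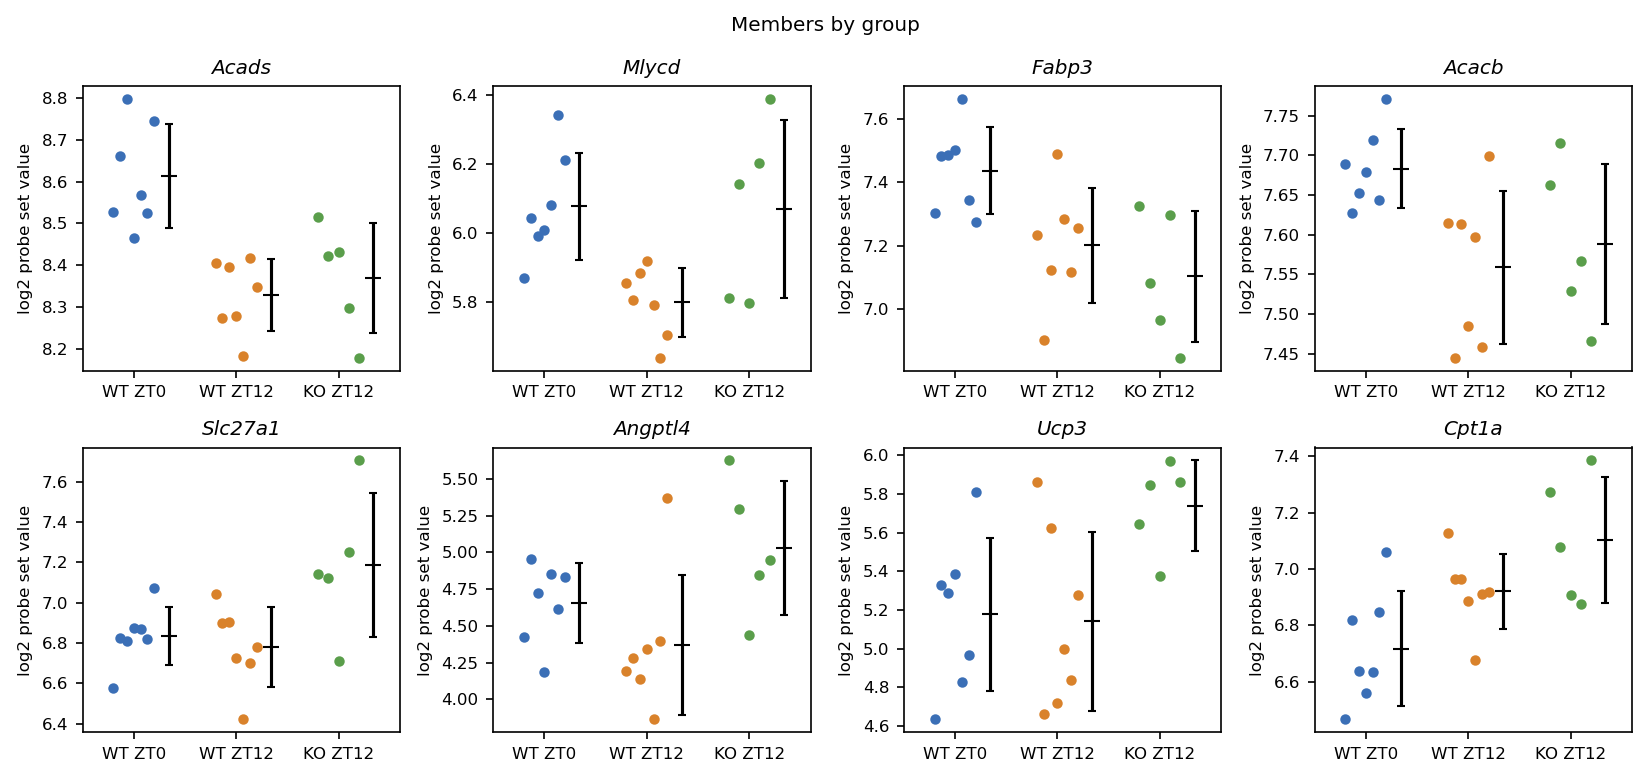
Log2 probe set value in each heart (dots) with the group mean and SD (black) for the 8 genes that were among the 4 with the smallest p in at least 1 of the 3 comparisons; each panel has its own vertical axis, which does not start at 0. The ZT0 and ZT12 wild-type dots separate for Acads, and the knockout dots overlap the WT ZT12 dots in all 8 panels.

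The knockout hearts at ZT12 were also set against wild-type hearts at ZT0, a comparison in which genotype and time both differ and which shares its hearts with the other comparisons. Again 0 of 30 genes passed by limma (1.34% of all genes passed), 8 reached an unadjusted p under 0.05 (12.6% of all genes), and the ranges separated for 0 (1.72% of all genes). Differences were above 0 for 18 of 30 (47.8% of all genes), with a median of 0.078 beside -0.0076 over all genes, and 21 intervals lay within 1.3-fold (67.6% of all genes). Without the 4 hearts low in atrial markers, which again leaves only knockout replicates 1 and 3, the median was -0.0048.

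Cpt1a came nearest to the threshold. It had a lowest, median and highest value of 6.47, 6.64 and 7.06 in WT ZT0 and 6.68, 6.92 and 7.13 in WT ZT12, and 7.27, 7.08, 6.91, 6.87 and 7.39 in the knockout hearts. All 5 knockout hearts were above the WT ZT0 mean, and 3 were above the highest WT ZT0 heart, replicate 7. The log2 difference of 0.39 (SE 0.11) had an adjusted p of 0.0807. It passed in 3 of 31 alternatives: with dim genes left out (adjusted p = 0.0429), with a trended and robust variance (0.0331) and without WT ZT0 replicate 7 (0.0302). In the other alternatives Cpt1a did not pass, with an adjusted p by limma of up to 0.376.

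Fabp3 read 7.33, 7.08, 6.97, 7.30 and 6.85 in the knockout hearts, all below the WT ZT0 mean of 7.44 (log2 difference -0.33, SE 0.10, adjusted p = 0.121). The dim second probe set of Fabp3 gave 0.036, and against WT ZT12 it gave 0.28 where the first gave -0.098, opposite signs both times. Acads was at -0.24 (adjusted p = 0.131) and Slc27a1 at 0.35 (adjusted p = 0.229). Without the 4 hearts low in atrial markers Acads was at -0.14 (adjusted p = 0.734) and Slc27a1 at 0.090. The second probe set of Lpl gave 0.23 where the first gave 0.10.

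Over all 3 comparisons, 20 of the 30 genes had every 95% interval within 1.3-fold, beside 54.3% of all genes; within 1.2-fold it was 17, beside 18%, and within 1.4-fold 23, beside 78.9%. They include every enzyme of the spiral from Hadha to Decr1, the dehydrogenases other than Acads, and the electron transfer genes, besides Cd36, Lpl, Acacb and Ppargc1a. Hadhb is counted among them, though its probe set read close to the array medians and says little about that subunit. Angptl4, Acot1, Acot2, Cpt1a and Ucp3 had none within that bound. An interval widens with the spread within groups, so this is not separate from how variable the genes were. Several of these 5 were the most variable within groups: Acot1 (SD 0.41), Angptl4 (0.40), Ucp3 (0.39) and Acot2 (0.35). The median SD was 0.11 over the 30 genes and 0.18 over all genes. All 30 had means at or above 3.25, the median probe set mean, against 13121 of the 22180 genes. The shares and SD over all genes thus include many dim genes, and the part of signal level was not tested. Acot1 read 4.38, 5.04 and 5.49 in WT ZT0, 4.49, 4.98 and 5.26 in WT ZT12 and 5.11, 5.26, 4.57, 5.09 and 6.31 in the knockout hearts. Most of its spread in the knockout group came from the lowest heart, replicate 3, and the highest, replicate 5, which are also the lowest and highest for Acot2 (9.69 and 11.04). Acot1 and Acot2 lie near each other on chromosome 12 and are close relatives, and whether their probes are fully separate was not tested. In WT ZT0 both were highest in replicate 7, while Acot1 was lowest in replicate 3 and Acot2 in replicate 6. In WT ZT12 the lowest and highest hearts were replicates 7 and 4 for Acot1 and replicates 2 and 1 for Acot2.

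The 30 genes differed between hearts of the same group. WT ZT0 replicate 7 was the highest of its 7 hearts in 23 of 30 genes (19.1% of all genes) and above its group mean in 29 of 30 (53% of all genes), with a median deviation of 0.17. Its cardiomyocyte marker mean of 11.31 was also the highest of WT ZT0, where the others ran from 11.24 to 11.28. Its macrophage marker mean (6.65) was the highest and its fibroblast marker mean (7.48) the lowest of that group. KO ZT12 replicate 3 was the lowest of 5 in 20 of 30 (19.9% of all genes), with a median deviation of -0.12 and a cardiomyocyte mean of 11.30, within the group. Its fibroblast marker mean, 7.80, was the highest of all 19 hearts, its endothelial marker mean, 7.37, was the highest of the knockout hearts, and it is 1 of 2 knockout hearts not low in atrial markers (8.29). In WT ZT12, replicate 2 was the lowest in 14 of 30 (15.5% of all genes). Its cardiomyocyte mean, 11.23, was the lowest of that group. What set these hearts apart was not tested.

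**Figure D4:**
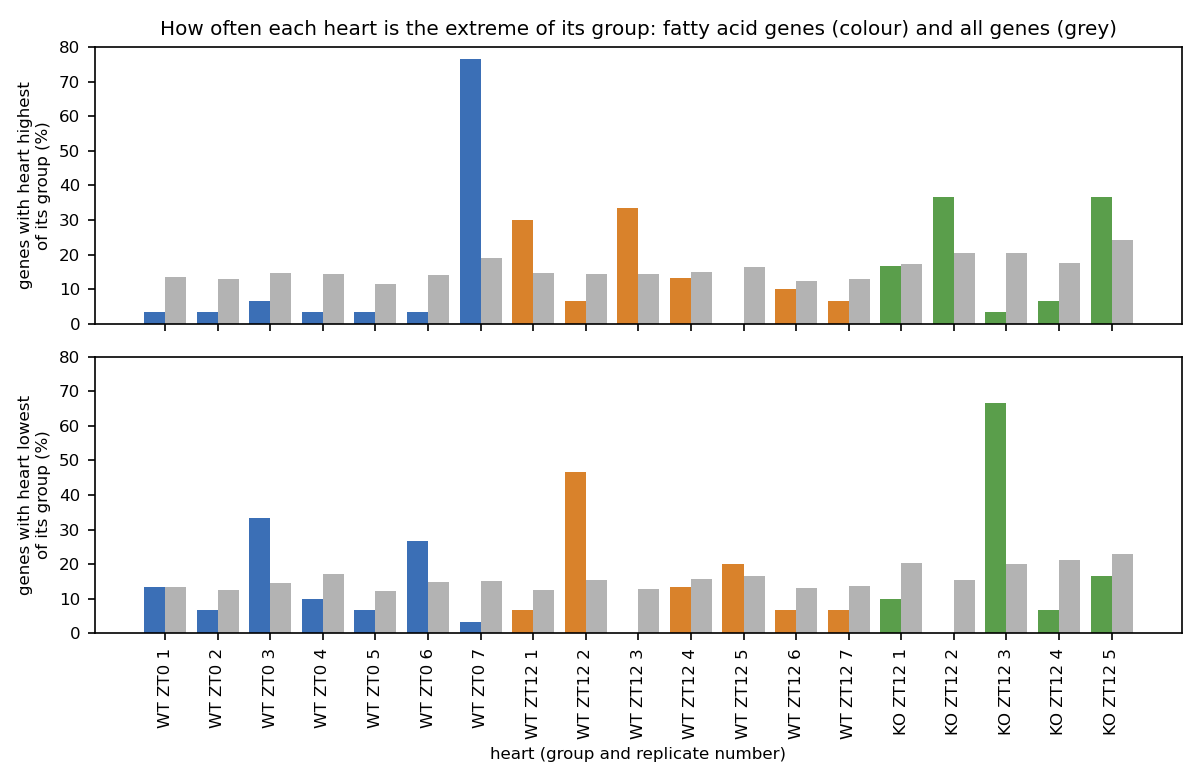
Percentage of the 30 genes (coloured bars) and of all genes (grey bars) in which each heart was the highest (top) or the lowest (bottom) of its own group; groups hold 7, 7 and 5 hearts. WT ZT0 replicate 7 at the top and KO ZT12 replicate 3 at the bottom stand out from their grey bars.

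These hearts weigh on the group differences. Without WT ZT0 replicate 7, the differences between the times of day were above 0 for 15 of 30 genes instead of 9, and their median was 0.0015. Without KO ZT12 replicate 3, the median difference between genotypes at ZT12 was 0.12, and Slc27a1 had 0.52 (adjusted p = 0.0527).

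The way the genes varied together within groups was described by slopes in limma, with group means removed. On Hadha, the slope was above 0 for 25 of the 29 other genes (51.7% of all genes), and 10 had an unadjusted p under 0.05 (7.38% of all genes), but 0 passed after adjustment (0.00451% of all genes passed). The smallest p were those of Acot1 (slope 3.52), Decr1 (1.11), Ech1 (1.15) and Acot2 (2.62), with adjusted p from 0.578 to 0.586. Without the 2 hearts farthest from their group mean in Hadha, 0 genes reached an unadjusted p under 0.05. On Ucp3, slopes were above 0 for 28 of 29 genes (52.3% of all genes), 6 had an unadjusted p under 0.05 (5.01% of all genes), and 0 passed (0% of all genes), the nearest being Cpt2, Slc27a1, Acot2 and Eci1 (slopes 0.21, 0.33, 0.46 and 0.21, adjusted p = 0.967 for each). Without the 2 hearts farthest in Ucp3, 1 gene reached an unadjusted p under 0.05. On the adipocyte marker mean 0 of 30 passed (0.284% of all genes passed), 10 slopes were above 0 (47.6% of all genes), and 3 had an unadjusted p under 0.05 (6.78% of all genes). Besides Angptl4, the smallest p were those of Mlycd (slope -0.13), Acot1 (-0.26) and Acads (0.075).

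Around these genes, 79 of 87 further genes of fatty acid handling were measured: transport, activation, peroxisomal oxidation, ketone bodies, lipid droplets and regulators. Between ZT12 and ZT0, 2 were higher (0.645% of all genes), 2 were lower (0.482% of all genes) and 75 did not pass. Klf15, a transcription factor of cardiac lipid and amino acid metabolism, read 4.99, 5.24 and 5.48 in WT ZT0 and 5.46, 5.62 and 6.02 in WT ZT12. Its ranges touched only at the edge, and it rose 1.38-fold (adjusted p = 0.0185). Dgat2, the last enzyme of triglyceride synthesis, rose 1.24-fold, from 8.94, 9.11 and 9.23 to 9.25, 9.43 and 9.44 (adjusted p = 0.0204), with all WT ZT12 hearts above all WT ZT0 hearts.

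Plin5, which coats lipid droplets next to mitochondria, fell 1.35-fold between the times of day, from 7.42, 7.52 and 7.93 to 6.81, 7.23 and 7.47 (adjusted p = 0.0481), the ranges overlapping at the edge. Slc27a4, fatty acid transport protein 4, fell 1.29-fold, from 4.48, 4.68 and 4.83 to 3.94, 4.33 and 4.56 (adjusted p = 0.0484), again with overlapping ranges. Both calls were near the threshold and were lost in 21 and 19 of 31 alternatives, against 2 for Klf15 and 1 for Dgat2.

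Between genotypes at ZT12, 2 of these 79 genes were higher in the knockout (0.442% of all genes), 0 were lower (0.289% of all genes) and 77 did not pass. Plin5 read 7.55, 8.01, 7.79, 7.82 and 7.91 in the knockout hearts, all above the highest WT ZT12 heart (7.47), and was 1.55-fold higher (log2 difference 0.63, SE 0.11, adjusted p = 0.00808). Pdk4, the kinase that shuts pyruvate dehydrogenase and so turns the heart from glucose to fat, had 8.97, 9.44 and 10.13 in WT ZT12 and 10.43, 10.11, 9.82, 10.47 and 11.28 in the knockout hearts. It was 2.0005-fold higher (SE 0.21 on the log2 scale, adjusted p = 0.0223), with all 5 knockout hearts above the WT ZT12 mean. The Pdk4 call was lost in 6 of 31 alternatives, among them those without KO ZT12 replicate 4 (adjusted p = 0.0544) or replicate 5 (0.0585), and that of Plin5 in 1. Without the 4 hearts low in atrial markers, which leaves 2 knockout hearts, the differences were 0.51 for Plin5 (adjusted p = 0.341) and 0.63 for Pdk4 (adjusted p = 0.442), and 19 genes of all 22180 passed.

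Against WT ZT0, 2 of the 79 genes were higher in the knockout (0.965% of all genes), 0 were lower (0.379% of all genes) and 77 did not pass. Slc25a20, the carnitine-acylcarnitine translocase that works between Cpt1a and Cpt2, read 7.88, 8.15 and 8.36 in WT ZT0 and 8.43, 8.53, 8.33, 8.52 and 8.68 in the knockout hearts, of which 4 lay above every WT ZT0 heart. It was 1.29-fold higher (log2 difference 0.36, SE 0.077, adjusted p = 0.0170). The call was lost in 6 of 31 alternatives, among them those without KO ZT12 replicate 4 (adjusted p = 0.0501) or replicate 5 (0.0611) and that with the atrial marker mean as a covariate. Klf15 was 1.55-fold higher, at 5.75, 5.67, 5.74, 5.94 and 6.06 in the knockout hearts (log2 difference 0.63, SE 0.11, adjusted p = 0.00286). Without the 4 hearts low in atrial markers neither passed (0.25 and adjusted p = 0.490 for Slc25a20, 0.54 and adjusted p = 0.151 for Klf15). On the adipocyte marker mean, Acaca, the cytosolic acetyl-CoA carboxylase, and Abcd2, a peroxisomal transporter, had slopes of 0.88 and 0.32 (adjusted p = 1.56e-05 and 0.0322).

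**Figure D5:**
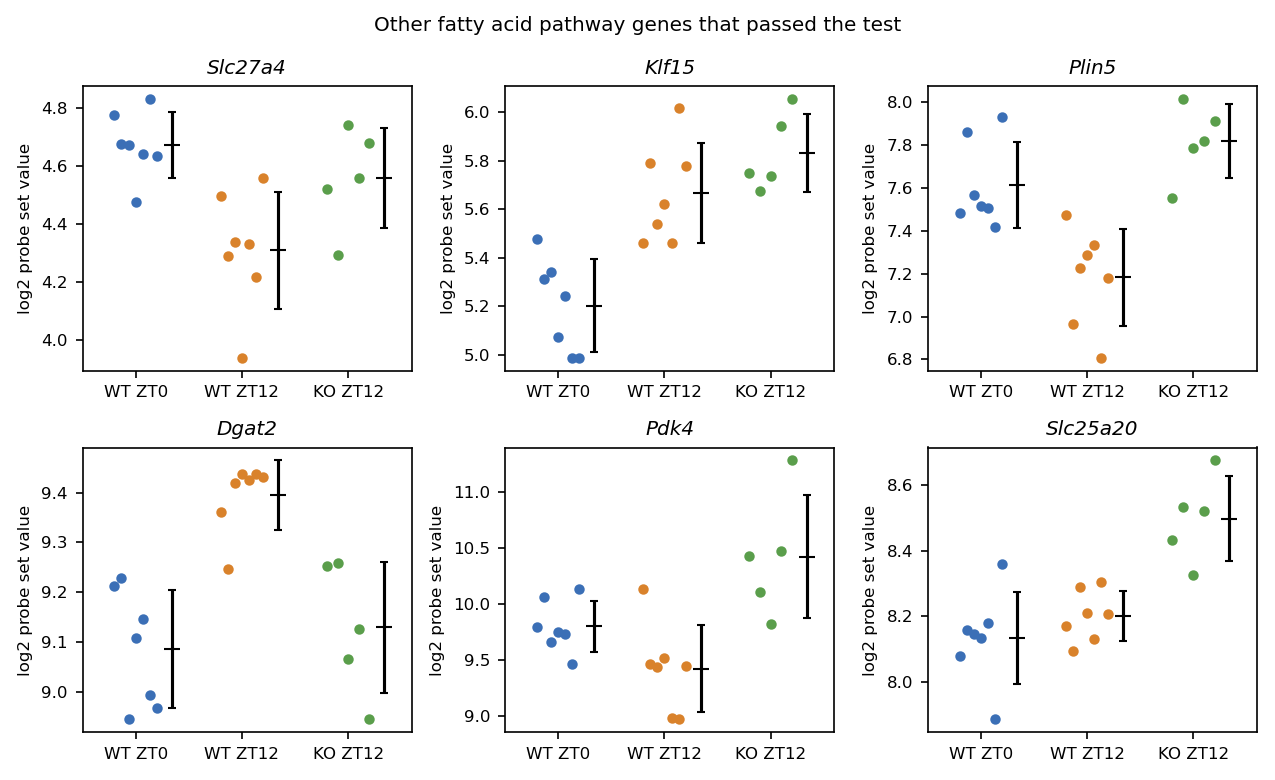
Log2 probe set value in each heart (dots) with the group mean and SD (black) for the 6 further genes of fatty acid handling that passed in at least 1 comparison; each panel has its own vertical axis, which does not start at 0. Plin5 has its lowest mean in WT ZT12, and Pdk4 and Slc25a20 have their highest in KO ZT12.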

How the data were processed

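Array values of 19 hearts were analysed, in 3 groups of 7 (WT ZT0), 7 (WT ZT12) and 5 (KO ZT12). The deposited values are probe set summaries on a log2 scale that the authors made with RMA, per the submitters' processing notes. The log2 scale was taken from the values, which run from 0.21 to 12.88. Neither the version of RMA nor its annotation is recorded in the labels. RMA normalizes quantiles across arrays, so a shift shared by most genes cannot be seen. Biotinylated DNA was made from 300 ng of RNA, per the labels. Precision is limited by the number of arrays.

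Of 41345 probe sets, 23521 list 1 gene in the platform annotation, 1814 list several and 16010 list none. The first kind gave 22180 genes, the probe set with the highest mean standing for a gene. Groups were compared in a single linear model over all arrays with limma 3.58.1 (lmFit, eBayes without trend) in R 4.3.3. Tests were two-sided, with Benjamini-Hochberg adjustment over all genes tested, and genes were called at an adjusted p under 0.05. Slopes on Hadha, on Ucp3 and on the mean of adipocyte markers were fitted with a term for each group. Intervals are 95% intervals of limma. The code was tested on simulated data.

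The members, the further genes, and the marker lists were chosen with earlier results of these data known. The bound of 1.3-fold for intervals replaced a slightly tighter one after values under that one had been seen, for a reason of reporting format and not of the data, and other bounds were added as alternatives after seeing the data. Values by heart are given for members called in any comparison, for the 4 with the smallest p in each, for the 3 most and the 1 least variable, and for those whose probe sets differ in sign; of the further genes, those called. Values by heart of Etfb, Acot2 and Hadha fall outside this rule and were chosen after they were seen. Alternatives were other scalings, filters and variance models, a replicate block, marker covariates and leaving out each array. Those without the 4 arrays low in atrial markers or the 2 highest in adipocyte markers were added after seeing the data. Replicates are called biological in the labels, and were taken as separate hearts. Same-numbered arrays of different groups did not vary together (correlations from -0.072 to 0.074), so the numbers were not used as pairs.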

Additional observations from a re-analysis of the deposited data

Results flagged for a closer look

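Values of the 30 genes were examined in each of the 3 groups, 90 sets of values, and 4 held a heart whose gap to its nearest neighbour was large for the range of its group. Where values are independent, chance gives such a gap in about 1 in 20 groups, and 4 of 90 is no more than that rate. The 90 sets share the same hearts and are not independent, so chance itself was not tested. Angptl4 in WT ZT12 replicate 7 was at 5.37, with the next heart at 4.40. The same heart had the highest adipocyte marker mean, and the part of that in the value was not tested. Etfb was at 9.56 in WT ZT0 replicate 7, with the next heart at 9.43, and at 9.19 in WT ZT12 replicate 6, with the next heart at 9.29. Hadha was at 10.94 in KO ZT12 replicate 3, with the next heart at 11.14.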

How the results depend on the processing

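The count of members called between the times of day was 1, and it fell to 0 with only the arrays compared, with each array centred on its median, with the replicate block, with the atrial marker mean as a covariate, without the 4 arrays low in atrial markers and without the 2 highest in adipocyte markers; leaving out single arrays gave 0 to 1. In these settings Acads, with adjusted p from 0.0590 to 0.139, stayed lower at ZT12; the cause was not tested. Between genotypes at ZT12 the count was 0, and 0 to 1 leaving out single arrays. Between KO ZT12 and WT ZT0 it was 0, with 1 when dim genes were left out, 2 with a trended and robust variance (Cpt1a, and Acads at 0.0422) and 0 to 1 leaving out single arrays. Leaving out dim genes tests fewer genes, 13121. Under the replicate block 0, 0 and 0 members passed in the 3 comparisons; 1 of 7 same-numbered wild-type arrays, and 0 in the other pairings, correlated best with their own number. Slopes called 0 members in all 25 alternatives each. Among the 79 further genes the counts ran over 0 to 4, 0 to 6 and 0 to 4 in the 3 comparisons, and those over all genes, 250, 162 and 298, were 383, 264 and 456 when dim genes were left out. With a trended and robust variance they were 374, 270 and 444. With the replicate block they were 171, 88 and 182, and with only the arrays compared 72 for the genotypes at ZT12 and 187 against WT ZT0. Without the arrays low in atrial markers they were 211, 19 and 84. Under the other scalings the median log2 difference of all genes stayed between -0.0097 and 0.0092. No called difference changed sign in an alternative. Of the 30 members, 9, 13 and 11 changed sign in at least 1 of 31 alternatives in the 3 comparisons, none of them called there; the causes were not tested. With the arrays quantile normalized again, Acadvl was at 0.00036 and Etfa at 0.039 between the times of day, Etfb was at -0.0065 between genotypes at ZT12 and Hadha was at -0.0075, Hadhb at 0.0067 and Acat1 at -0.0015 between KO ZT12 and WT ZT0. With each array centred on its median, Acadvl was at 0.0041 and Etfa at 0.0088 between the times of day and Mlycd was at 0.0079, Hadhb at 0.012, Echs1 at 0.016, Eci2 at 0.013 and Decr1 at 0.0096 between KO ZT12 and WT ZT0. With probe sets averaged, Lpl was at 0.043 between the times of day and Fabp3 was at 0.090 between genotypes at ZT12. With array weights, Acadvl was at 0.0024, Etfa at 0.0054 and Ucp3 at 0.032 between the times of day and Hadhb was at 0.0056, Echs1 at 0.018, Eci2 at 0.0089 and Decr1 at 0.0060 between KO ZT12 and WT ZT0. With the replicate block, Acadvl was at 0.0029 between genotypes at ZT12 and Mlycd was at 0.0050, Hadhb at 0.017 and Eci2 at 0.013 between KO ZT12 and WT ZT0. With the adipocyte marker mean as a covariate, Mlycd was at 0.0080 and Echs1 at 0.00049 between KO ZT12 and WT ZT0. With the atrial marker mean as a covariate, Eci1 was at -0.016 between the times of day, Acadm was at -0.018 and Decr1 at -0.00043 between genotypes at ZT12 and Acot1 was at -0.034, Hadha at -0.024, Hadhb at 0.022 and Acat1 at -0.017 between KO ZT12 and WT ZT0. Without the 4 arrays low in atrial markers, Slc27a1 was at 0.0071 between the times of day, Acot1 was at -0.093, Acadm at -0.057, Hadha at -0.049, Echs1 at -0.0047, Ech1 at -0.11, Decr1 at -0.091 and Ppargc1a at -0.040 between genotypes at ZT12 and Acot1 was at -0.16, Hadha at -0.053, Hadhb at 0.046, Acaa2 at -0.013 and Acat1 at -0.018 between KO ZT12 and WT ZT0. Without the 2 arrays highest in adipocyte markers, Acot1 was at 0.012 and Etfa at 0.0056 between the times of day and Mlycd was at 0.055 and Echs1 at 0.023 between KO ZT12 and WT ZT0. Leaving out single arrays, between the times of day, Acadvl ran from -0.028 to 0.030, Acot1 from -0.16 to 0.023, Cd36 from -0.037 to 0.0035, Etfa from -0.026 to 0.018, Hadha from -0.029 to 0.0047, Slc27a1 from -0.096 to 0.0071 and Ucp3 from -0.16 to 0.069. Leaving out single arrays, between genotypes at ZT12, Acacb ran from -0.0024 to 0.060, Acadm from -0.011 to 0.049, Acadvl from -0.054 to 0.013, Acat1 from -0.040 to 0.0085, Echs1 from -0.0045 to 0.065, Etfb from -0.014 to 0.060, Hadhb from -0.0048 to 0.064 and Ppargc1a from -0.031 to 0.14. Leaving out single arrays, between KO ZT12 and WT ZT0, Acadvl ran from -0.061 to 0.012, Decr1 from -0.044 to 0.066, Ech1 from -0.084 to 0.044, Echs1 from -0.047 to 0.026, Eci2 from -0.046 to 0.035, Hadhb from -0.044 to 0.025 and Mlycd from -0.089 to 0.059. With 7 against 7 or 5 hearts, members with a within-group SD near 0.4 have intervals wider than 1.3-fold. The bound on intervals was changed after values were seen, and the members' standing against all genes depends on it. Midway between 1.2-fold and 1.3-fold, the bound used first, 22, 22 and 21 of 30 members lay within it in the 3 comparisons, beside 60.8%, 52.2% and 51.3% of all genes; within 1.2-fold 21, 18 and 20, beside 39.3%, 31.5% and 30.1%; within 1.4-fold 29, 25 and 23, beside 90.7%, 86.8% and 86.1%. In all 3 comparisons together, 17 of 30 lay within 1.2-fold (18% of all genes), 20 within the bound used first (36.5%) and 23 within 1.4-fold (78.9%). Members thus exceeded the share of all genes at the 2 tighter bounds, and at 1.3-fold and 1.4-fold were above it in some comparisons and below it in others.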
